A study of Homo sapiens with 6 samples.

Results

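The genes described here are 10 neighbours from the long arm of chromosome 12, bands 12q13 to 12q15, that are co-amplified in well-differentiated and dedifferentiated liposarcoma: OS9, TSPAN31, CDK4, HMGA2, MDM2, CPM, YEATS4, FRS2, CCT2 and RAB3IP. They are a fixed list of gene names, drawn up with earlier results of these data known, and all 10 were found among the 60843 genes of the deposited table. Each was high enough to be tested, having a mean of at least 0.5 FPKM (fragments per kilobase of gene, scaled to library size) over the 6 libraries, as had 14791 genes in all. The cells were SW872-S, a liposarcoma line. The 3 TP53INP2_OE libraries came from cells carrying a plasmid that overexpresses TP53INP2, a protein of the autophagy machinery and a co-activator of nuclear receptors, and the 3 NC libraries came from cells labelled as its negative control. All 6 libraries were from 1 line, and the labels do not say whether replicates were separate cultures or transfections. The p-values therefore measure the spread between libraries, which may be technical. The design text speaks of 2 sources of cells without saying what they were.

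The amplicon of these tumours usually arises on supernumerary ring or giant marker chromosomes that carry many copies of the segment. MDM2 is an E3 ubiquitin ligase that marks other proteins for degradation, and CDK4 is the cyclin D-dependent kinase that phosphorylates RB. Gain of both is the diagnostic hallmark of the disease, while HMGA2, an architectural chromatin protein silenced in most adult tissues, is frequently co-amplified or rearranged. DNA copy number was not measured here, so the values below are levels of RNA only.

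TP53INP2 itself had 18.9, 23.4 and 27.1 FPKM in the TP53INP2_OE libraries, against 10.6, 9.45 and 9.67 FPKM in the NC libraries, a ratio of means of 2.33. The libraries held 16038062 to 17607612 reads recovered from FPKM and gene length. Of the mesenchymal markers listed, 5 of 8 passed the filter on low values, and their summed level was 1547 to 1613 FPKM in TP53INP2_OE libraries and 1490 to 1578 FPKM in NC libraries. Of 9 adipocyte markers, 2 passed the filter, with a median of 9.74 FPKM, and ADIPOQ, LEP and FABP4 were listed at 0 in every library. The summed adipocyte markers were 19.4 to 19.8 FPKM in TP53INP2_OE libraries and 19.3 to 20.8 FPKM in NC libraries. The summed epithelial markers were 64.7 to 76.4 FPKM in TP53INP2_OE libraries and 82.3 to 84.3 FPKM in NC libraries. Leukocyte markers were near 0, at 0.211 to 0.515 FPKM in TP53INP2_OE libraries and 0.172 to 0.482 FPKM in NC libraries, and endothelial markers at 48.2 to 49.9 FPKM in TP53INP2_OE libraries and 48.9 to 53.2 FPKM in NC libraries. The part of the epithelial shift in the results below was not tested.

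The sequences of 3 promoters and 5 transcript sites are shown first, because they belong to members called higher or lower and show motifs that recur in their windows. RefSeq windows (GRCh38.p14) of 250 bases before to 50 bases after a gene start were matched for 9 of the 10 members, with 16 windows between them, and not for HMGA2. Each window was searched on both strands for exact matches to 4 short motifs. These were the E-box CACGTG, bound by MYC and related factors, and the CCAAT box, bound by the NF-Y complex. The others were the GC box GGGCGG, bound by SP1 and its relatives, and the TATA box, here in the form TATAAA. Matches may share letters at their ends, as 2 of the GC boxes of FRS2 do. A match is a description of the letters and not evidence of binding. The windows and motifs shown were picked from those searched, and not every called member has a window shown. The shares over all windows are therefore background and not a test.

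The CDK4 window, chr12:57752261-57752560 on the minus strand, holds 3 E-boxes, marked in capitals. At least 1 E-box was present in 7.26% of the 35116 human windows, and 3 or more in 0.094%.
CDK4: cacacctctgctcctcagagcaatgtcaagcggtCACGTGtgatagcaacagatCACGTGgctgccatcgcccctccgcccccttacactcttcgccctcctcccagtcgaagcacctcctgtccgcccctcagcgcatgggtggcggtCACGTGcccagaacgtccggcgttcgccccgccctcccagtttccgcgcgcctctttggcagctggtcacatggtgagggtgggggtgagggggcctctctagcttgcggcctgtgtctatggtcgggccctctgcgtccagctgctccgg

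The OS9 window, chr12:57693882-57694181 on the plus strand, holds 4 CCAAT boxes on either strand, marked in capitals. Of all windows, 34.6% hold at least 1 and 3.26% hold 3 or more. TSPAN31, which did not pass the test, also has 4 in its window.
OS9: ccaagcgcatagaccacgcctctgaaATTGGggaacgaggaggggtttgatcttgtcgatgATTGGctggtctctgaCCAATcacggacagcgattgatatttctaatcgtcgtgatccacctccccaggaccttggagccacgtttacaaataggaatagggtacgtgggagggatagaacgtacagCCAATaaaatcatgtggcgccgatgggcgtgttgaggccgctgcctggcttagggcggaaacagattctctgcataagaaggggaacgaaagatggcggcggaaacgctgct

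The FRS2 window, chr12:69470138-69470437 on the plus strand, holds 3 GC boxes, marked in capitals. GC boxes are common: 45.0% of windows hold at least 1 and 15.8% hold 3 or more. CPM and RAB3IP, which did not pass the test, have windows with 6 and 4, and CDK4 and CCT2 have windows with 3. The TATA box was found in none of the 16 member windows and in 11.5% of all windows.
FRS2: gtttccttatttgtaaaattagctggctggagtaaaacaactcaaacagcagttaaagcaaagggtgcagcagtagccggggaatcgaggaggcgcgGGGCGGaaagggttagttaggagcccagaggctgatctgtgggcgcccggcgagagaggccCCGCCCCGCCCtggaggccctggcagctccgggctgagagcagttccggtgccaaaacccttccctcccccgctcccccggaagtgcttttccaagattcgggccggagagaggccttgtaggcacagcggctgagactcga

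HMGA2 is the textbook target of the let-7 microRNAs, which bind its 3′ untranslated region. The let-7 family shares 1 seed, bases 2 to 8 of the mature RNA, in capitals here for let-7a and for let-7i, whose gene lies between OS9 and RAB3IP (RefSeq, GRCh38.p14).
hsa-let-7a-5p: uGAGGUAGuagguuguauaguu
hsa-let-7i-5p: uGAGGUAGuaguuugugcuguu

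The principal HMGA2 transcript of GENCODE release 29 (4473 bases) holds 5 exact complements of that seed. They are in capitals below with the bases before and after, numbered from the transcript's 5′ end. The whole transcript was searched, so a match need not lie in the 3′ untranslated region. No other HMGA2 transcript had more than 1 match. Of 20369 genes, 20.9% had a principal transcript with at least 1 such match, and 13 genes, HMGA2 included, had 5 or more. Among the other members, RAB3IP had 2 matches, CDK4, MDM2, CPM, FRS2 and CCT2 had 1 each, and OS9, TSPAN31 and YEATS4 had none. Mature microRNAs were not measured in these libraries.
HMGA2 site at base 824: ccctcctcctcttgCTACCTCc
HMGA2 site at base 1477: ccaacgttcgatttCTACCTCa
HMGA2 site at base 2712: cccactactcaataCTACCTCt
HMGA2 site at base 3124: tgacttgcaaagacCTACCTCc
HMGA2 site at base 3977: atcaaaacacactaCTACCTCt

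By level, the members spanned a wide range. CCT2, CDK4 and OS9 were the 3 highest, with means over the 6 libraries above those of 97.2%, 94.8% and 87.9% of tested genes. YEATS4 and HMGA2 came next and their ranges overlapped. FRS2, TSPAN31, MDM2 and CPM followed, each overlapping the next in that order, and RAB3IP was lowest, at the 17.4th percentile. MDM2 stood at the 43.0th percentile of tested genes by FPKM. The gene length behind its FPKM was 13448 bases, against 2523 for its principal transcript, while CDK4 had 3094 against 2076. The order of levels between genes therefore depends on the length used. By reads, HMGA2 had 2342 to 3739 a library and OS9 1730 to 2670, although OS9 stood higher by FPKM. CCT2, CDK4, OS9 and RAB3IP were each apart from their neighbours in the order in all 6 libraries.

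With TP53INP2 overexpression, 4 of the 10 members were higher (HMGA2, FRS2, MDM2 and CCT2), 2 were lower (OS9 and CDK4), and TSPAN31, CPM, YEATS4 and RAB3IP did not pass the test. Of all 14791 tested genes 35.0% passed, 16.4% higher in TP53INP2_OE and 18.6% lower (limma on log2(FPKM + 1), adjusted p below 0.05). Not all tested genes are protein-coding, as the members are, and the share that passed was larger among genes more like them. In a fit of protein-coding genes only, 5727 of 11278 passed. In a fit of genes of at least 5 FPKM, 4541 of 7264 passed. The members' count is therefore not read as an excess. Without the first NC library, 1 member was called higher (HMGA2) and 1 lower (OS9). The median log2 fold change was 0.16 over the members and 0.00 over all tested genes. The TP53INP2_OE libraries all lay above the NC libraries for 7 members and all below for 2. Of all tested genes 50.8% were fully apart, 25.2% above and 25.6% below. Of 10671 protein-coding genes on other chromosomes, 3140 were fully above and 3315 fully below. A single comparison of 3 against 3 libraries cannot give an exact two-sided permutation p below 0.1, and these 9 members gave 0.1. In bulk RNA, a change in some cells and a smaller change in every cell cannot be told apart.

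**Figure D1:**
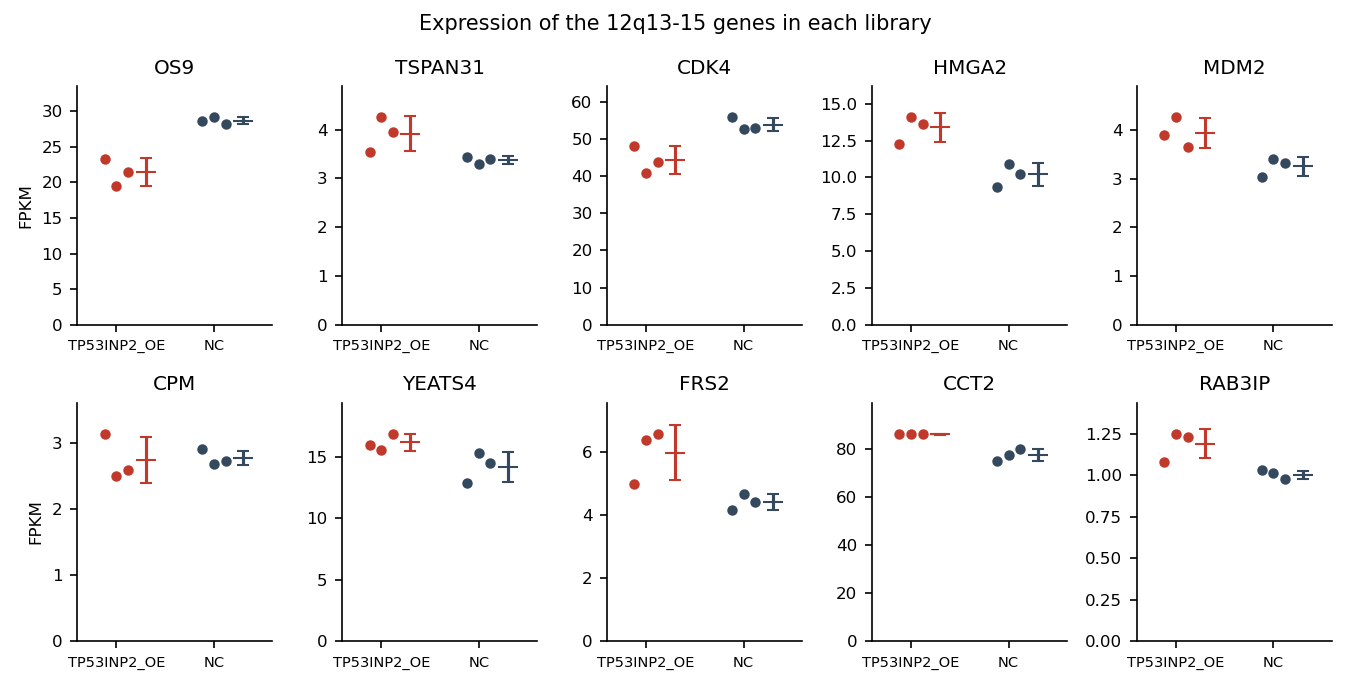
FPKM of the 10 genes (vertical axes, each starting at 0) in the 3 TP53INP2_OE libraries (red, left) and the 3 NC libraries (dark, right); points are libraries and the bars give the mean and SD. OS9 and CDK4 sit lower in all 3 TP53INP2_OE libraries, CPM overlaps, and the other 7 sit higher, by ratios of 1.11 to 1.35.

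The fold changes ran with base composition. Genes of low GC content tended to be higher in TP53INP2_OE and genes of high GC content lower, across the whole table. The members at the ends of the GC range followed that order, but not all between them did. CPM, at 42.1%, had a log2 fold change of -0.015, where genes of like GC content had a median of 0.14. TSPAN31, at 48.2%, had 0.164, where such genes had a median of 0.01. OS9 and CDK4, the 2 members called lower, had the highest transcript GC content of the 10, at 51.8% and 53.6%. HMGA2 and FRS2, with the highest fold changes, had the lowest, at 38.8% and 36.9%. Among the 2136 tested genes within 2 percentage points of HMGA2, 44.9% were called higher and 0.936% lower. Among the 1829 tested genes equally close to CDK4, 2.52% were called higher and 26.5% lower. When a smooth trend on GC content and gene length was fitted out of each library, no member was called higher and 1 was called lower, OS9, against 3.99% and 6.9% of the 14548 genes tested in that fit. The cause of the trend was not tested, and each member's value is given below in both fits. Where the text below names only GC content for this fit, gene length was fitted out with it. The parts of GC content and of length in a change between the fits were not separated.

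**Figure D2:**
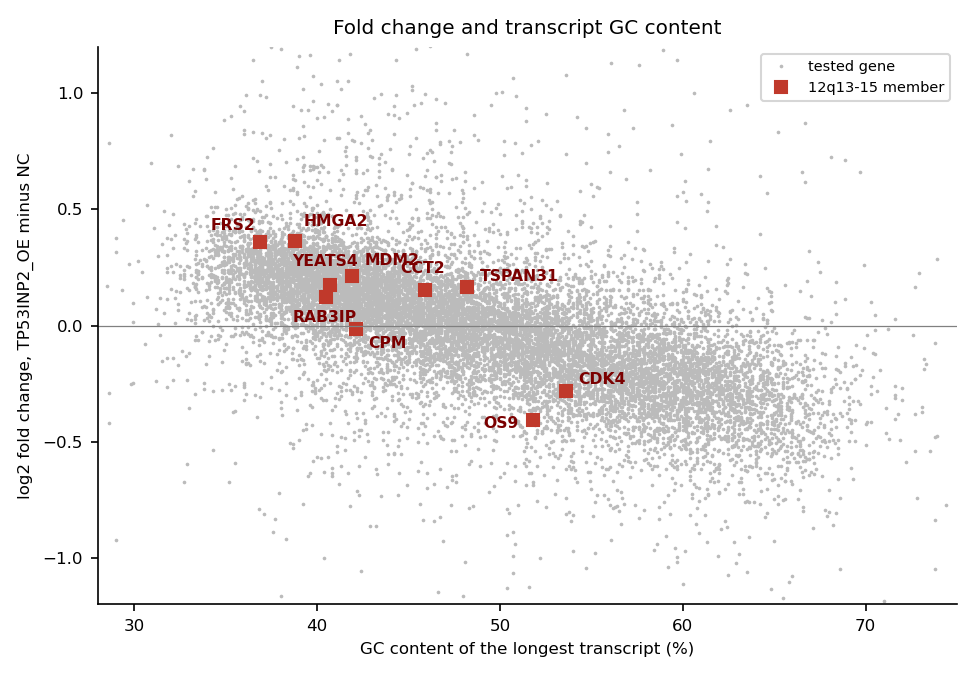
Transcript GC content (horizontal axis, percent) against log2 fold change, TP53INP2_OE minus NC, for 14489 tested genes (grey); another 59 lie outside the axes. The 10 named members (red squares) lie within the same downward-sloping cloud of points.

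**Figure D3:**
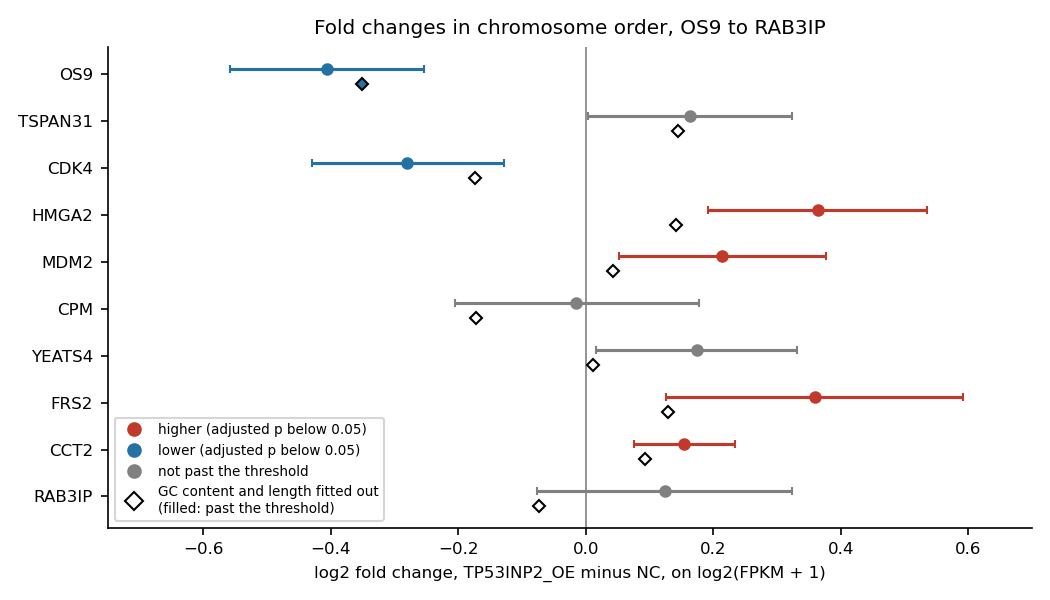
log2 fold change, TP53INP2_OE minus NC, with its 95% confidence interval for the 10 members from OS9 at the top to RAB3IP (circles; red higher, blue lower, grey not past the threshold), and the estimate with GC content and length fitted out (diamonds). The diamonds of the 4 genes called higher move toward 0, and only that of OS9 is filled, which marks an adjusted p below 0.05.

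OS9 (ENSG00000135506, chr12:57693955-57721557, plus strand, GRCh38) encodes a lectin of the endoplasmic reticulum that passes misfolded glycoproteins to the SEL1L-SYVN1 ubiquitin ligase. It had 23.3, 19.5 and 21.5 FPKM in TP53INP2_OE libraries, against 28.6, 29.2 and 28.3 FPKM in NC libraries. All 3 TP53INP2_OE libraries were below all 3 NC libraries, and OS9 fell to 0.748 of the NC mean. Its log2 fold change was -0.41 (SE 0.064, 95% interval -0.56 to -0.25, adjusted p = 0.00528). With GC content and length fitted out it was -0.35 (SE 0.054, adjusted p = 0.0153). Genes of like GC content had a median log2 fold change of -0.08.

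Of 20 other tested genes of this degradation route, 7 rose and 2 fell, with a median log2 fold change of 0.05. ERLEC1, the second lectin of the pathway and the closest counterpart of OS9, rose to 35.1 ± 0.448 FPKM in TP53INP2_OE, against 25.9 ± 0.771 FPKM in NC (SD, n = 3 each). Its log2 fold change of 0.42 (limma adjusted p = 0.00225) was 0.26 with GC content fitted out (adjusted p = 0.0167). The lectin pair thus changed in opposite directions under both fits. SEL1L, the scaffold of the ligase, rose by 0.21 (adjusted p = 0.0205) and did not pass once GC content was fitted out (adjusted p = 1.0). EDEM3, a mannosidase that trims the glycans these lectins read, rose by 0.30 (adjusted p = 0.0239), and the chaperone HSP90B1, also called GRP94, by 0.26 (adjusted p = 0.00392). Neither passed in the fit on GC content.

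CDK4 (ENSG00000135446, chr12:57747727-57756013, minus strand) had 48.3, 40.8 and 44.0 FPKM in TP53INP2_OE libraries, against 56.0, 52.9 and 53 FPKM in NC libraries. The groups did not overlap, and CDK4 fell to 0.822 of the NC mean. The log2 fold change was -0.28 (SE 0.063, 95% interval -0.43 to -0.13, adjusted p = 0.0157). Genes of like GC content had a median of -0.12, and with GC content fitted out the value was -0.17 (adjusted p = 0.0786), with all 3 TP53INP2_OE libraries still below. Without the first NC library the adjusted p was 0.0589.

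Around CDK4, 4 genes of the cyclin D and RB axis rose and 10 fell, of 23 tested, with a median log2 fold change of -0.07. The inhibitors of CDK4 and CDK6 were among those that fell: CDKN2C, which encodes p18, had 12.1 ± 0.341 FPKM in TP53INP2_OE and 18.1 ± 0.427 FPKM in NC (log2 fold change -0.55, limma adjusted p = 0.00166), and CDKN2D, which encodes p19, had 8.06 ± 0.678 FPKM in TP53INP2_OE and 11.5 ± 0.434 FPKM in NC (-0.47, adjusted p = 0.00368). CDKN2A fell by 0.29 (adjusted p = 0.00814). CDKN2A counts do not separate p16 from the ARF transcript, which is read in another frame. E2F1, the transcription factor released by phosphorylated RB, fell by 0.50 (adjusted p = 0.00166). CDKN2C, CDKN2D and E2F1 also passed with GC content fitted out, at -0.34, -0.20 and -0.22, and CDKN2A did not, at -0.03. CDKN2B, another inhibitor of the list, fell by 0.27 (adjusted p = 0.0185) and by 0.36 with GC content fitted out (adjusted p = 0.0245). CDK6, the partner kinase, was higher at 0.24 (adjusted p = 0.0112) and RB1 at 0.32 (adjusted p = 0.00766), but their values were 0.03 and 0.09 with GC content fitted out, and neither passed. CCND1, the main cyclin of these kinases, had 89.2 ± 2.39 FPKM in TP53INP2_OE and 90.4 ± 0.849 FPKM in NC and did not pass (adjusted p = 0.667).

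TSPAN31 (ENSG00000135452, chr12:57738013-57750219, plus strand), a tetraspanin membrane protein first found amplified in sarcomas, converges on CDK4 from the opposite strand. The gene bodies overlap by 2493 bases, and 1369 exon bases are shared in GENCODE release 29, which is 25.4% of TSPAN31 exon sequence and 43.2% of that of CDK4. The sources do not say whether strand was used in counting, so reads from the shared stretch cannot be assigned to 1 of them with certainty. TSPAN31 had 3.54, 4.26 and 3.95 FPKM in TP53INP2_OE libraries, against 3.45, 3.29 and 3.40 FPKM in NC libraries. All TP53INP2_OE libraries were higher, while the log2 fold change of 0.16 (95% interval 0.004 to 0.32) did not pass after adjustment (adjusted p = 0.103). It did pass without the first TP53INP2_OE library (adjusted p = 0.0429). The value was 0.145 in the fit on GC content (adjusted p = 0.227). The ratio of CDK4 to TSPAN31 was 13.6, 9.58 and 11.1 in TP53INP2_OE libraries, against 16.2, 16.1 and 15.6 in NC libraries, without overlap. That follows from CDK4 lying below and TSPAN31 above in every TP53INP2_OE library, and is not a separate result.

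Other tetraspanins were mostly lower: of 16 tested, 1 rose and 9 fell, with a median of -0.25. CD63, of late endosomes and exosomes, had 70.2 ± 3.23 FPKM in TP53INP2_OE and 97.4 ± 6.77 FPKM in NC (log2 fold change -0.47, limma adjusted p = 0.00327). CD82 fell by 0.56 (adjusted p = 0.00419) and TSPAN4 by 0.46 (adjusted p = 0.00564). These genes are GC-rich, with a list median of 56.0%, and 2 of the 9 passed as lower with GC content fitted out, CD63 and CD82.

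HMGA2 (ENSG00000149948, chr12:65824131-65966295, plus strand) had 12.3, 14.1 and 13.6 FPKM in TP53INP2_OE libraries, against 9.33, 10.9 and 10.2 FPKM in NC libraries. All 3 TP53INP2_OE libraries were above the NC libraries, and HMGA2 rose to 1.31 times the NC mean. The log2 fold change was 0.36 (SE 0.072, 95% interval 0.19 to 0.54, adjusted p = 0.0104). Genes of like GC content had a median of 0.21. With GC content fitted out the value was 0.14 (adjusted p = 0.21) and the libraries of the groups overlapped.

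HMGA1, the paralogue of HMGA2 on another chromosome, went the other way: it had 133 ± 13.3 FPKM in TP53INP2_OE and 199 ± 5.48 FPKM in NC, a log2 fold change of -0.58 (limma adjusted p = 0.00321). It was also lower with GC content fitted out, at -0.32 (adjusted p = 0.0156). Of the 13 tested genes of the HMGA2 and let-7 list, 3 rose and 1, HMGA1, fell, with a median of 0.12. The 3 included NRAS, a let-7 target (0.35, adjusted p = 0.0031), and PLAG1, a transcription factor that HMGA2 is known to activate (0.31, adjusted p = 0.0448). None of the 3 passed with GC content fitted out. The ratio of HMGA2 to CDK4 was 0.254, 0.347 and 0.31 in TP53INP2_OE libraries, against 0.167, 0.207 and 0.193 in NC libraries, without overlap. That follows from HMGA2 lying above and CDK4 below in every TP53INP2_OE library, and is not a separate result. The GC content of these genes differs, at 38.8% and 53.6%, and the ratio was not computed with GC content fitted out.

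MDM2 (ENSG00000135679, chr12:68808177-68850686, plus strand) had 3.90, 4.27 and 3.66 FPKM in TP53INP2_OE libraries, against 3.03, 3.41 and 3.33 FPKM in NC libraries. All 3 TP53INP2_OE libraries were higher, at 1.21 times the NC mean. The log2 fold change of 0.21 (SE 0.068, 95% interval 0.05 to 0.38) was at the edge of the threshold (adjusted p = 0.0493). It did not pass when any 1 library other than the third TP53INP2_OE library was left out (adjusted p from 0.082 to 0.147). Its value was 0.04 in the fit on GC content (adjusted p = 0.695).

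Of 18 tested genes of the MDM2 pathway, 2 rose and 6 fell, with a median of -0.02. RPL11, a ribosomal protein that binds and inhibits MDM2, fell by 0.42 (adjusted p = 0.0113), and NUMB, which binds MDM2, rose by 0.29 (adjusted p = 0.00319). Both passed with GC content fitted out. RPL11 has processed pseudogenes between which its reads could have been split. MDM4, the MDM2 paralogue, had 3.16 ± 0.111 FPKM in TP53INP2_OE and 2.93 ± 0.129 FPKM in NC and did not pass (adjusted p = 0.307). CDKN1A, which encodes the cell cycle inhibitor p21, had 29.8 ± 0.491 FPKM in TP53INP2_OE and 26.9 ± 5.08 FPKM in NC, with overlapping libraries (adjusted p = 0.351). Its log2 fold change was 0.16, and 0.37 with GC content fitted out. It did not pass there either (adjusted p = 0.093), but in that fit all TP53INP2_OE libraries lay above the NC libraries.

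CPM (ENSG00000135678, chr12:68842197-68971570, minus strand), a membrane carboxypeptidase that removes C-terminal basic residues, converges on MDM2. The gene bodies overlap by 8490 bases and share 133 exon bases, 1.77% of CPM exon sequence. CPM had 3.14, 2.50 and 2.59 FPKM in TP53INP2_OE libraries, against 2.90, 2.68 and 2.73 FPKM in NC libraries. It was the only member whose groups overlapped, with the first TP53INP2_OE library the highest of the 6 and the other 2 the lowest. Its log2 fold change was -0.015, within a 95% interval of -0.21 to 0.18 (adjusted p = 0.906), and -0.17 in the fit on GC content (adjusted p = 0.256). Among 6 other tested carboxypeptidases, 1 rose and 2 fell, with a median of -0.09. CPA4 fell by 0.39 (adjusted p = 0.00505), CPXM1 by 0.36 (adjusted p = 0.0174), and CPD, a carboxypeptidase of the secretory pathway, rose by 0.15 (adjusted p = 0.0261). In the fit on GC content CPA4 passed (-0.39, adjusted p = 0.0154), while CPXM1 (-0.10, adjusted p = 0.407) and CPD (-0.05, adjusted p = 0.401) did not, and the sign of CPD turned.

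YEATS4 (ENSG00000127337, chr12:69359710-69390870, plus strand), also called GAS41, reads acetylated histones within the TIP60 (NuA4) and SRCAP complexes. It had 16.0, 15.6 and 16.9 FPKM in TP53INP2_OE libraries, against 12.9, 15.3 and 14.5 FPKM in NC libraries. The groups did not overlap, by a narrow margin between 15.6 and 15.3 FPKM, and the log2 fold change of 0.17 (95% interval 0.02 to 0.33) did not pass (adjusted p = 0.0846). It did pass when only protein-coding genes were tested (adjusted p = 0.041). In the fit on GC content it was 0.01 (adjusted p = 0.936), with overlapping libraries. Of 23 tested subunits and relatives, 5 rose and 4 fell, with a median of 0.01. MLLT1, another protein with a YEATS domain, had 16.5 ± 1.47 FPKM in TP53INP2_OE and 25.6 ± 0.873 FPKM in NC (log2 fold change -0.61, limma adjusted p = 0.00281; -0.33 and 0.0117 with GC content fitted out). RUVBL2, an ATPase of both complexes, fell by 0.49 (adjusted p = 0.00818) and MRGBP by 0.34 (adjusted p = 0.0075), but neither passed in the fit on GC content (adjusted p = 0.0694 and 0.0545). KAT5, the acetyltransferase of TIP60, had 3.36 ± 0.373 FPKM in TP53INP2_OE and 3.77 ± 0.342 FPKM in NC and did not pass.

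FRS2 (ENSG00000166225, chr12:69470349-69579789, plus strand) is the docking protein that links activated FGF receptors to the RAS pathway through GRB2 and SOS. It had 4.97, 6.36 and 6.57 FPKM in TP53INP2_OE libraries, against 4.15, 4.65 and 4.42 FPKM in NC libraries. All 3 TP53INP2_OE libraries were higher, the first of them least, and the mean was 1.35 times that of NC. The log2 fold change was 0.36 (SE 0.098, 95% interval 0.13 to 0.59, adjusted p = 0.0297). It did not pass when any 1 library other than the first TP53INP2_OE library was left out (adjusted p from 0.0604 to 0.0955), nor with GC content fitted out (0.13, adjusted p = 0.384).

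Of 18 tested genes of FGF receptor signalling, 5 rose and 5 fell, with a median of -0.02. SOS2, an exchange factor for RAS, rose by 0.34 (adjusted p = 0.00516), while the adaptor SHC1 fell by 0.34 (adjusted p = 0.00452). ETV4, a transcription factor induced by FGF signalling, had 20.2 ± 0.632 FPKM in TP53INP2_OE and 26.7 ± 1.24 FPKM in NC (log2 fold change -0.38, limma adjusted p = 0.00301). FGFR1, the receptor, had 2.62 ± 0.0957 FPKM in TP53INP2_OE and 3.26 ± 0.315 FPKM in NC and fell by 0.23 (adjusted p = 0.0429). SHC1 and ETV4 also passed as lower with GC content fitted out, at -0.17 and -0.13, and SOS2 and FGFR1 did not. GRB2 fell by 0.23 (adjusted p = 0.00516) and passed as lower in that fit (-0.165, adjusted p = 0.017). SPRY2 rose by 0.255 (adjusted p = 0.00912) and was the only gene of the list higher in that fit (0.248, adjusted p = 0.021). DUSP6, ETV5 and SPRY4 passed in neither fit.

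CCT2 (ENSG00000166226, chr12:69585426-69601570, plus strand) lies 5636 bases beyond FRS2 and encodes a subunit of TRiC, the chaperonin that folds actin, tubulin and other proteins. It had 86.2, 85.9 and 85.9 FPKM in TP53INP2_OE libraries, against 74.7, 77.2 and 79.7 FPKM in NC libraries. The groups were fully apart, and the SD over the TP53INP2_OE libraries was 0.205 FPKM. CCT2 rose to 1.11 times the NC mean, a log2 fold change of 0.15 (SE 0.033, 95% interval 0.08 to 0.23, adjusted p = 0.0137). With GC content fitted out it was 0.09 (adjusted p = 0.094), without overlap, and leaving out the first NC library gave an adjusted p of 0.0522. Of the 15 other tested chaperonin and prefoldin genes, 3 rose and 4 fell, with a median of -0.06. TCP1, another TRiC subunit, had 67.7 ± 1.62 FPKM in TP53INP2_OE and 62.6 ± 0.857 FPKM in NC (log2 fold change 0.11, limma adjusted p = 0.0368), and its value was -0.003 with GC content fitted out. Among the other TRiC subunits, CCT8 also rose by 0.14 (adjusted p = 0.0239), while CCT7 fell by 0.26 (adjusted p = 0.00884) and CCT3 by 0.13 (adjusted p = 0.0357). CCT7 was the only one of these 4 to pass in the fit on GC content (-0.21, adjusted p = 0.0245). The prefoldin subunits, which pass substrates to TRiC, changed in both directions: PFDN6 by -0.97 (adjusted p = 0.0075), PFDN2 by -0.37 (adjusted p = 0.00341) and PFDN4 by 0.40 (adjusted p = 0.00865). In the fit on GC content PFDN6 and PFDN2 were also lower (adjusted p = 0.0307 and 0.0172), PFDN4 did not pass (adjusted p = 0.122), and the list had 0 genes higher and 5 lower.

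RAB3IP (ENSG00000127328, chr12:69738681-69823204, plus strand), also called Rabin8, is the exchange factor that activates RAB8 for transport to the primary cilium. It had 1.08, 1.25 and 1.23 FPKM in TP53INP2_OE libraries, against 1.03, 1.01 and 0.979 FPKM in NC libraries. The groups did not overlap, but the difference rested on 211 to 270 reads a library, and the log2 fold change of 0.12 (95% interval -0.08 to 0.32) did not pass (adjusted p = 0.297). In the fit on GC content the sign turned, at -0.07 (adjusted p = 0.61). Of its 15 tested partners, 5 rose and 5 fell, with a median of -0.02, and none passed with GC content fitted out. RAB11A, which recruits RAB3IP to vesicles, rose by 0.37 (adjusted p = 0.00547), as did CEP290 of the ciliary transition zone by 0.39 (adjusted p = 0.0139). RAB8A, its substrate, fell by 0.16 (adjusted p = 0.0245) and RAB3IL1, its paralogue, by 0.37 (adjusted p = 0.0309). The close relatives went the other way: RAB8B rose by 0.35 (adjusted p = 0.00524) and RAB11B fell by 0.30 (adjusted p = 0.0112).

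Along the chromosome the starts of the members span 12.04 Mb. CDK4 and HMGA2 are separated by 8068117 bases, so OS9, TSPAN31 and CDK4 form a proximal group and the members from HMGA2 to RAB3IP a distal one. Their neighbours were grouped in the same way after the values were seen, and are described without a test. Within 0.3 Mb of the CDK4 start, 16 other protein-coding genes were tested, and none rose while 7 fell, with a median log2 fold change of -0.15. Their median GC content was 55.1%. The 7 that fell include B4GALNT1, a ganglioside synthase, at -0.34 (adjusted p = 0.0191). Of these 7, only CTDSP2 starts between OS9 and RAB3IP. The others start before OS9, so they are not among the genes of that interval counted below. Between HMGA2 and RAB3IP, 11 others were tested, and 4 rose (CAND1, MDM1, RAP1B and NUP107) while none fell, with a median of 0.11 and a median GC content of 40.3%. Once GC content was fitted out, none of the 16 genes near CDK4 was called, and of the 11 distal genes 0 were higher and 2 lower. The groups' medians were then -0.05 and -0.05.

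**Figure D4:**
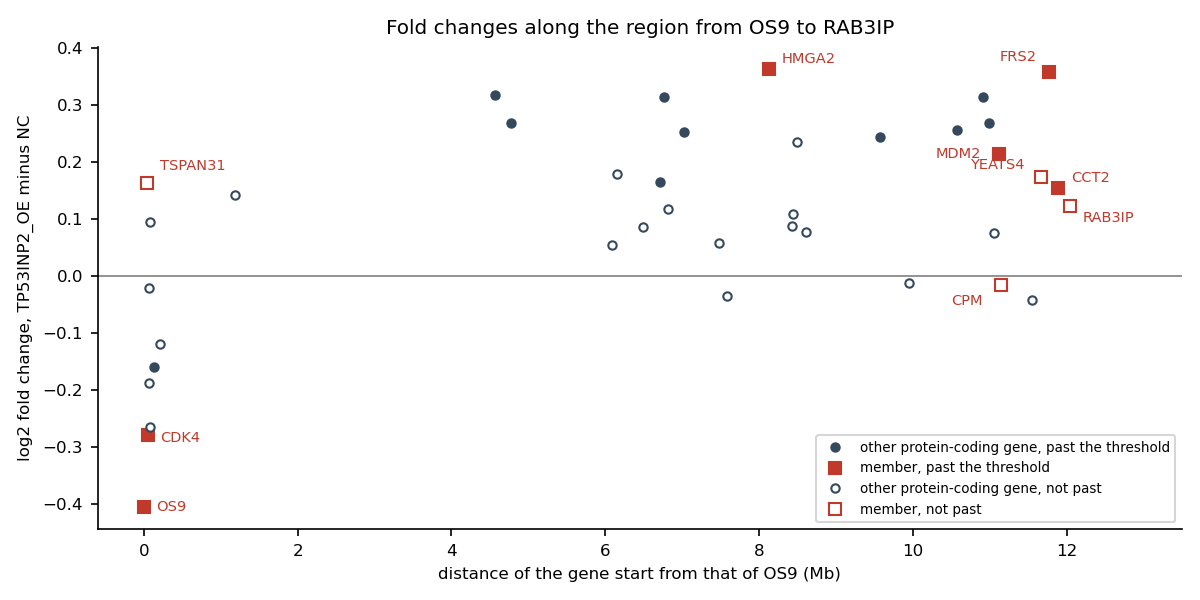
log2 fold change, TP53INP2_OE minus NC (vertical axis), of the tested protein-coding genes against the distance of their start from that of OS9 (horizontal axis, Mb); squares are the 10 members, circles are others, and filled symbols passed the threshold. Called genes near OS9 and CDK4 lie below 0, and called genes from 4 Mb onward lie above it.

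Over the whole interval from OS9 to RAB3IP, 29 protein-coding genes other than the members were tested, of which 9 rose and 1 fell (median 0.10). The members' counts of 4 and 2 of 10 can be set beside these. On the rest of chromosome 12, 125 of 568 protein-coding genes rose and 111 fell (median 0.01), and on the other chromosomes 2098 of 10671 rose and 2476 fell (median -0.01). With GC content fitted out, 1 of the 29 neighbours was higher and 2 were lower. Among 32 tested genes of a wider list of the 12q13-15 region, 10 rose and 5 fell; USP15, a deubiquitinase, rose by 0.32 (adjusted p = 0.011) and TBK1, a kinase of innate immunity and autophagy, by 0.32 (adjusted p = 0.00624). Neither passed in the fit on GC content (adjusted p = 0.355 and 0.198). Among 10 tested genes of other liposarcoma loci, a list that also holds DDIT3 of 12q13, 3 rose and 6 fell, JUN, a transcription factor gene, by 0.38 (adjusted p = 0.0029), and JUN also fell with GC content fitted out. All partner lists together gave 36 genes higher and 47 lower of 165 tested.

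The genes whose levels followed the 3 leading members most closely over the 6 libraries were NUP35, TXN and TBCEL for MDM2, with Pearson r of 0.9996, 0.9955 and 0.9918. For CDK4 they were UCKL1, AP2A1 and STIP1 (0.9988, 0.997 and 0.9969), and for HMGA2 RPP30, GLRX and TASOR (0.9981, 0.9973 and 0.9955). These are descriptions over 6 libraries that share their group difference and the GC trend. For MDM2, CDK4 and HMGA2, 817, 1594 and 1257 of the other genes of at least 5 FPKM had an r above 0.9.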

How the data were processed

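RNA from SW872-S cells was sequenced from Trizol extracts with Illumina TruSeq libraries, per the labels' protocols. The authors deposited FPKM values for 60843 genes with name, position, length and type, per the file headers. Bowtie 0.12.2, mm8 and GRCh38 are named in the submitters' processing notes without a role; the counting step and use of strand are not given in the sources used here. Of the gene IDs, 96.2% were in GENCODE release 29 (GRCh38), and 92.8% of these had the same start or end.

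FPKM times length gave whole reads for 100.0% of values (tolerance 0.01). The tested genes averaged 0.5 FPKM or more and were fitted with limma 3.58.1 (R 4.3.3; trended empirical Bayes) on log2(FPKM + 1), which understates changes of low genes, with Benjamini-Hochberg adjustment over 14791 genes. GC content (longest transcript, known for 98.4% of tested genes) and length were fitted out with splines of 5 degrees of freedom each. The fit was also run on simulated reads as a check of the code. Those reads had the same spread setting for every gene and few changed genes, unlike these data, so the calls draw no support from that check. Named genes are the members, TP53INP2, up to 3 called genes with the largest change from each list, fixed direct partners, and the 3 genes most like MDM2, CDK4 and HMGA2; other names were chosen after values were seen. Members and lists were chosen with earlier results of these data known. Same-numbered libraries deviated with r of 0.011 to 0.017, so the numbers were not treated as pairs. Some genes of the lists are counted but not reported here by name.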

Additional observations from a re-analysis of the deposited data

How the results depend on the processing

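OS9 was past the threshold in all 16 alternatives. CDK4 and CCT2 lost their calls in 3 each, HMGA2 in 2, FRS2 in 8 and MDM2 in 9. MDM2 kept its call in 6, and its mean level was too low for the fit of genes of at least 5 FPKM. Fitting out GC content and length left 0 members higher and 1 lower, 1585 genes past the threshold (36.7% of them higher, against 46.9% without it), 1 region gene higher and 2 lower, and 5 partners higher and 25 lower. With the replicate block added these were 0 and 1 members, 788 genes, 0 and 1 region genes, and 1 and 16 partners. The replicate block alone left 4396 genes and 1 region gene lower, and MDM2 lost its call (adjusted p = 0.0715). Without a filter, 2 members were higher and 1 region gene lower; quantile normalization left 1 region gene lower. voom on the recovered reads called 6143 genes.

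Leaving out 1 library gave 1 to 4 members higher and 1 to 2 lower, 3276 to 4779 genes, 8 to 10 region genes higher and 0 to 4 lower, and 19 to 29 partners higher and 32 to 44 lower. Without the first NC library, 3276 genes and 1 member higher (HMGA2) and 1 lower (OS9) remained past the threshold. TSPAN31 passed without the first TP53INP2_OE library (adjusted p = 0.0429), and YEATS4 among genes of at least 5 FPKM (adjusted p = 0.0425).

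Signs turned for CPM without the first NC library (0.009), the second TP53INP2_OE library (0.033) or the third (0.013), within a leave-one-out range of -0.089 to 0.033. CCND1 turned under quantile normalization (0.056) and without the first TP53INP2_OE library (range -0.034 to 0.002). With GC content fitted out, with and without the block, signs turned for RAB3IP (-0.073), CCND1 (0.004), CPD (-0.047), KAT5 (0.085), MDM4 (-0.076), NUP35 (-0.051), SEL1L (-1.66e-05), TASOR (-0.073), TCP1 (-0.003) and UCKL1 (0.146). The causes were not tested. RAB3IP, TSPAN31 and CPM rested on 211 to 384 reads a library.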
